A study of Homo sapiens with 9 samples.

Results

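The genes described here carry the symbols of mitochondrial ribosomal proteins. MRPS36 is among them by its symbol, though its protein is now assigned to another complex, as given below. Their transcripts were followed in A375R cells after a short exposure to R4VPL3-1 or to its VHL-binding moiety. The genes were taken as every protein-coding row of the deposited table whose symbol begins with MRPL or MRPS and a number and whose normalized count averaged at least 10 over the 9 libraries. This gave 69 genes of 78 such rows, in a table of 62710 rows of which 15230 passed the same minimum and were tested.

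The mitochondrial ribosome translates the proteins encoded by mitochondrial DNA, which are core subunits of the respiratory chain and of ATP synthase. Its ribosomal RNAs are transcribed inside the organelle, whereas its proteins are encoded by nuclear genes, made in the cytosol and imported. Many of these proteins have a counterpart in the bacterial ribosome, and others exist only in mitochondria. Proteins of a ribosome are needed in matched amounts, so their transcripts are commonly discussed as a group.

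A375R is an established human melanoma line that resists the BRAF inhibitor PLX4032 and was kept in that inhibitor in culture, as stated in the methods. R4VPL3-1 is a PROTAC-like compound that joins an RNF4-binding part to a recruiter of the ubiquitin ligase VHL, and VHL-r is the recruiter alone. Cells received 10 µM R4VPL3-1 or 10 µM VHL-r for 2 h, or DMSO, with 3 libraries for each treatment, described in the methods as biological repeats. The labels call the controls wild type and give them no dose; the series' design names them DMSO, the name used here.

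Poly(A) RNA was sequenced in strand-specific single reads, and each deposited value is the number of reads of a gene divided by a size factor of its library, called normalized count below. The recovered totals were between 26435568 and 32085626 reads per library, and none of the 9 pairs of libraries within a treatment was as alike as sampling noise would make it. Of 10 melanoma markers, 7 passed the minimum, while MLANA and MIA were at 0 in every library and TYR averaged 0.354. For the markers too, a value of 0 is no statement on whether the gene is transcribed. The summed melanoma markers lay between 23880 and 25740 normalized counts in DMSO, 14690 and 18180 in VHL-r, and 13190 and 15670 in R4VPL3-1, led by SOX10, which was called lower in each comparison (log2 fold change -1.06 in R4VPL3-1 against DMSO, -0.79 in VHL-r against DMSO and -0.28 between the compounds; limma adjusted p = 1.56e-11, 3.14e-09 and 0.00951). MITF averaged 1722 in DMSO, 1047 in VHL-r and 1011 in R4VPL3-1. Fibroblast markers summed to between 1676 and 2233 in DMSO, 1422 and 3117 in VHL-r, and 1745 and 2214 in R4VPL3-1. All 5 were above the minimum, and the groups did not separate in the sum. Among them LUM was called lower in VHL-r against DMSO, at -0.52, while the other 4 lay above 0 there. Keratinocyte markers summed to between 2207 and 2305 in DMSO, above all sums in VHL-r (2003 to 2203) and R4VPL3-1 (1915 to 2064), with DSG3 at 0 in every library and KRT1 averaging 0.111. KRT14 was called lower in R4VPL3-1 against DMSO, at -0.47 (limma adjusted p = 0.00104). Immune markers summed to between 91.5 and 177 over all libraries, with CD3E averaging 1.39 and PTPRC 4.62. The part of these markers in the results below was not tested. In bulk RNA, fewer cells of a kind and less RNA per cell cannot be told apart.

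Each comparison was read from a limma fit over all genes tested, on the scale log2(normalized count + 1), with p-values adjusted by Benjamini and Hochberg's method over those genes, and a gene was called where the adjusted p did not exceed 0.05. This scale understates changes of genes with low counts. Permuting 3 against 3 libraries exactly reaches 0.1 at the lowest for any gene, which is why the p-values of the fit across genes are printed.

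The 69 genes differed widely in level and little between treatments. Per kilobase of exon, the highest was MRPS34, a mitochondrion-specific protein of the small subunit, with 3692 ± 104 normalized counts per kilobase in DMSO, 3476 ± 151 in VHL-r and 3392 ± 103 in R4VPL3-1 (SD, n = 3 each). MRPL51 of the large subunit followed, with a mean of 3377 over the 9 libraries, and in VHL-r the levels of MRPL51 and MRPS34, 3439 ± 161 and 3476 ± 151, differed by less than their spread. Per kilobase of the longest transcript the order changed, with MRPL51 highest at 5220 and MRPS34 the third at 3696. The median gene had 731 normalized counts per kilobase, and the middle of the distribution, from the lower to the upper quartile, ran from 388 to 1179. At the bottom stood MRPS28 with 7.38, MRPL2 with 17.0, MRPS25 with 56.4 and MRPL23 with 61.5.

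**Figure D1:**
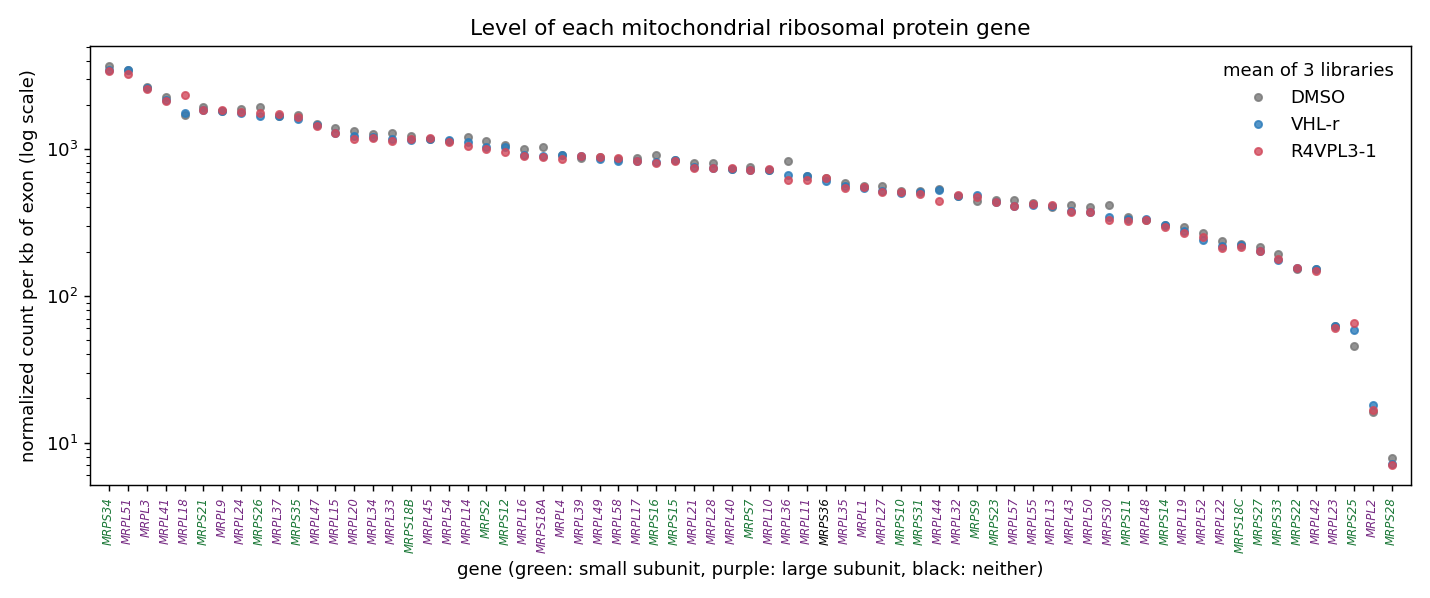
Mean normalized count per kilobase of exon (log scale) of each of the 69 genes in DMSO, VHL-r and R4VPL3-1, ordered by level. The means of the 3 treatments nearly coincide for most genes, from 3520 for MRPS34 to 7.38 for MRPS28. Among the exceptions, MRPL18 stands apart in R4VPL3-1 alone, MRPL36 and MRPS30 stand higher in DMSO, and MRPS25 stands lower in DMSO.

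The remaining 9 rows fell below the minimum and were not tested: MRPL12, MRPL30, MRPL38, MRPL46, MRPL53, MRPS5, MRPS6, MRPS17 and MRPS24. Of these, 7 are listed at 0 in every library, MRPL46 averaged 0.119 and MRPS6 averaged 0.222. All 9 share exon bases on the same strand with another annotated gene, over 9.48% to 72.9% of their exon length, for instance MRPS24 with the read-through gene URGCP-MRPS24. Among the 69 tested genes 9 share any, up to 35.8% for MRPS28. In the default mode of htseq-count a read on exons of several genes of the same strand is assigned to none, and the part of this overlap in the low values was not tested. Just above the minimum were MRPS28, with a mean of 13.4, and MRPL2, with a mean of 37.0, so both are measured with wide intervals. Of windows of 100 exon bases, 9.21% of those of MRPL45, 3.62% of MRPS36, 0.65% of MRPS10 and 0.47% of MRPL35 also occur elsewhere in annotated genes, so their counts are less certain. The products of the 9 low rows are known parts of the ribosome in human cells, and a value of 0 here is no statement on whether the gene is transcribed.

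**Figure D2:**
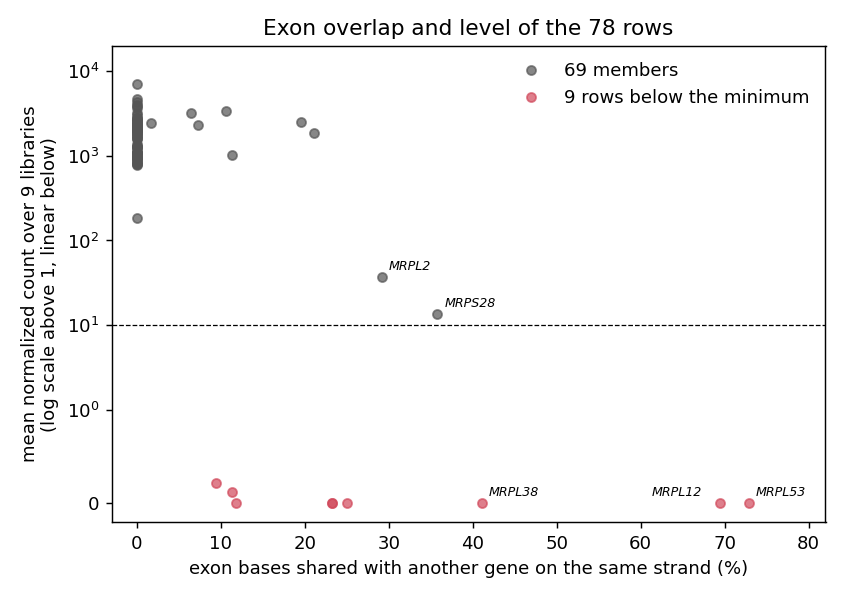
Mean normalized count over the 9 libraries (log scale above 1, linear below) against the share of exon bases that another gene covers on the same strand, for the 69 genes kept (grey) and the 9 below the minimum of 10 (red, dashed line). The 9 low rows have between 9.48% and 72.9% of their exon bases covered, and MRPS28, the lowest gene kept, has 35.8%.

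R4VPL3-1 was compared with DMSO to see what the full compound changed. Of the 69 genes, 10 fell and 2 rose, so 14.5% were called lower, beside 11.8% of all tested genes, and 2.90% were called higher, beside 13.1% of all. The changes were small: log2 fold changes ran from -0.43 to 0.49, and none of the 69 exceeded 0.5 in size. The median was -0.069, beside -0.0063 over all tested genes, and 54 of the 69 lay below 0, beside 51.5% of all genes. In 23 genes (33.3%) all R4VPL3-1 libraries lay below all DMSO libraries, beside 18.9% of all genes, and in 2 (2.90%) they lay above, beside 19.1%.

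VHL-r was compared with DMSO in the same way. Here 5 of the 69 genes fell (7.25%, beside 9.51% of all genes) and 1 rose (1.45%, beside 10.3%). The median was -0.043, beside -0.0045 over all genes, 51 of the 69 lay below 0, beside 51.3% of all, and the range was -0.33 to 0.36. All VHL-r libraries lay below all DMSO libraries for 21 genes (30.4%, beside 17.2% of all) and above them for 2 (2.90%, beside 17.1%). Both comparisons use the same DMSO libraries and are therefore not independent.

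The comparison of R4VPL3-1 with VHL-r separates the full compound from its recruiter at the same dose and time. MRPL18 rose and none of the 69 fell at the adjusted threshold, so 1.45% were called higher, beside 1.14% of all genes, and 0% lower, beside 0.729%. By edgeR on the recovered reads none fell, by DESeq2 MRPL44 fell, and in limma 2 of the 69 had an unadjusted p under 0.05. The median was -0.016, beside -0.0056 over all genes, and without R4VPL3-1 replicate 1 it was 0.0019. Without overlap, R4VPL3-1 stood above VHL-r in MRPL18 (1.45%, beside 6.99% of all genes) and below it in 4 genes (5.80%, beside 7.11%), which were MRPL4, MRPL11, MRPL36 and MRPL44 and of which MRPL4 and MRPL11 are named after their values were seen.

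How far a difference could have gone unseen is shown by the intervals. In R4VPL3-1 against VHL-r the 95% interval of the log2 fold change lay within 0.26 of 0, a change of 1.2-fold either way, for 63 of the 69 genes (91.3%), beside 50.5% of all genes. The same held for 59 genes (85.5%) in VHL-r against DMSO and for 51 (73.9%) in R4VPL3-1 against DMSO, beside 39.8% and 37.2% of all. The replicates were close: the median residual SD was 0.058 on the log2 scale for the 69 genes, 0.063 for the 6420 tested genes at or above the 10th percentile of the 69 in level and 0.10 for all genes tested. For MRPS28 the interval was -0.80 to 0.79 in R4VPL3-1 against VHL-r, so a sizeable change of that gene could not have been detected.

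**Figure D3:**
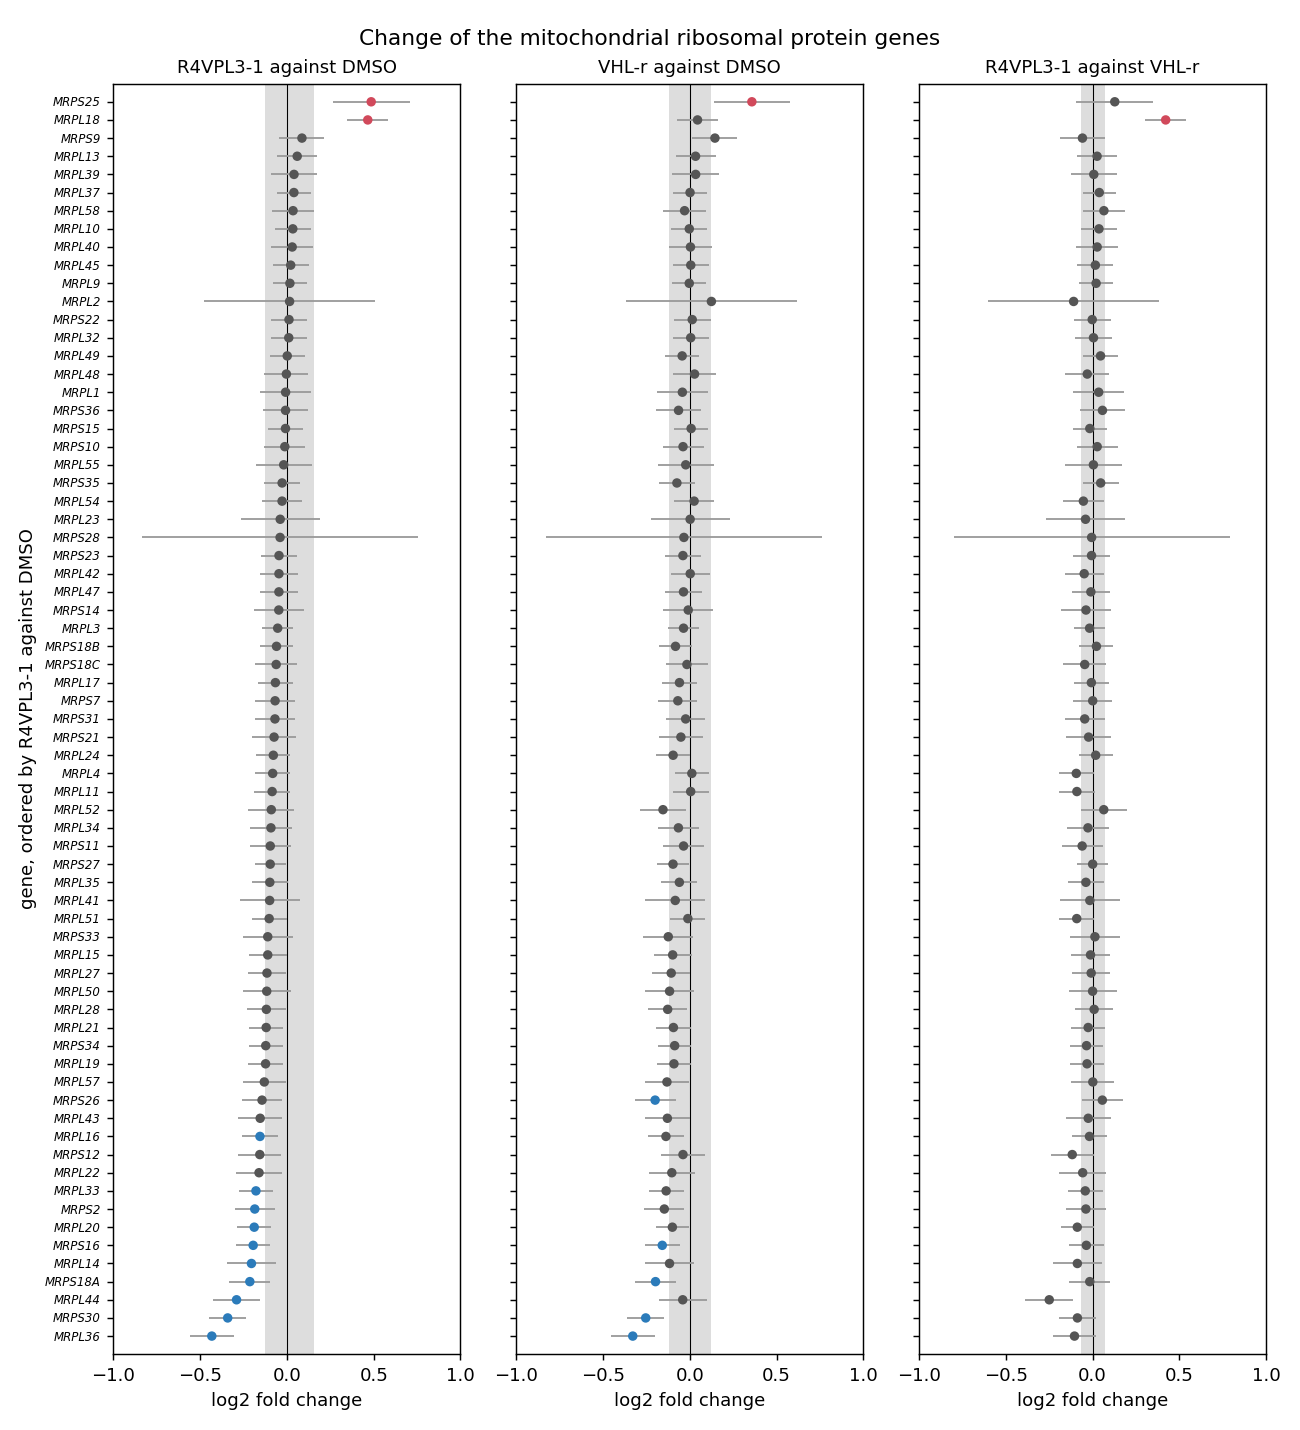
Log2 fold change (point) with its 95% interval (line) of the 69 genes in the 3 comparisons, in 1 order throughout; red points were called higher, blue points lower, and the grey band holds the middle 50% of all tested genes. Most points lie left of 0 against DMSO, where 10 and 5 genes were called lower, while MRPL18 is the single called gene in R4VPL3-1 against VHL-r.

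MRPL18 (ENSG00000112110, chr6:159789812-159798436 on GRCh38, plus strand) encodes the mitochondrial counterpart of the bacterial protein that binds 5S ribosomal RNA and sits in the central protuberance of the large subunit. Its normalized counts were 2413, 2424 and 2163 in DMSO, 2404, 2318 and 2491 in VHL-r, and 3418, 3250 and 3000 in R4VPL3-1. The R4VPL3-1 libraries all lay above the 6 others, and the DMSO and VHL-r libraries overlapped. The log2 fold change was 0.42 ± 0.057 (SE) against VHL-r (limma adjusted p = 8.75e-05), or 1.34-fold, and 0.47 ± 0.057 against DMSO (limma adjusted p = 2.58e-06). In VHL-r against DMSO it was 0.045, with a 95% interval of -0.074 to 0.16 (limma adjusted p = 0.664). The rise against VHL-r was called under every alternative run for it, with log2 fold changes from 0.38 to 0.47 and adjusted p from 1.54e-09 to 0.00213. MRPL18 and MRPL44 were both followed because they are listed in the study's gene table, which was drawn from these libraries, so their changes are no independent evidence.

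MRPL18 and TCP1, a subunit of the cytosolic chaperonin, are transcribed away from each other. The bases between their first RefSeq starts are shown because any element placed there would lie before both of these starts. They are chr6:159789603-159789811 (GRCh38.p14, plus strand), from the base after the TCP1 start to the base before the MRPL18 start. The annotated TCP1 gene reaches to 159789703, so the part of the interval up to that base lies inside TCP1.

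MRPL18 to TCP1 interval: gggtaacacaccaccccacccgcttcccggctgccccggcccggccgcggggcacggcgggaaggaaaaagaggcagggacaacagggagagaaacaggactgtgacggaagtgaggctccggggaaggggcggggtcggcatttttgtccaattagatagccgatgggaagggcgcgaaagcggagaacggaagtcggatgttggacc

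Searched on both strands for 6 short motifs, these 209 bases held none of them. The motifs were the heat shock element in its 2 orientations (TTCNNGAA and GAANNTTC), NRF1 (GCGCA, any base, then GCGC), ETS (CCGGAAG), YY1 (AAGATGG) and the E-box (CACGTG), and each is a palindrome or was also read as its reverse complement. Within the windows of 250 bases before to 50 after the RefSeq starts of MRPL18, both heat shock orientations and the ETS motif matched, with the match in capitals.

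MRPL18, GAANNTTC, chr6:159789818-159789841: aagaggttGAACCTTCgcctcaaa

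MRPL18, TTCNNGAA, chr6:159789870-159789893: ctagtgccTTCTAGAAaaggttgt

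MRPL18, ETS motif, chr6:159790433-159790455: acttgctaCTTCCGGgtcggtgg

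The first match begins 14 bases past the RefSeq start at 159789812, and the second 11 bases past the start at 159789867, before which the first match lies at -41. The ETS match lies at -26 from a further start at 159790467. The heat shock letters are common and say nothing of binding: 8.2% and 9.5% of all 27305 genes with a promoter window match in at least 1 window. MRPL18 has 3 windows, and a gene with more windows has more chances of a match. TCP1 itself had 17063, 16807 and 16528 normalized counts in DMSO, 17060, 16674 and 16861 in VHL-r, and 18513, 18275 and 17456 in R4VPL3-1, where its libraries lay above the 6 others. Its log2 fold change was 0.10 against VHL-r and 0.11 against DMSO, and neither was called (limma adjusted p = 0.324 and 0.053).

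**Figure D4:**
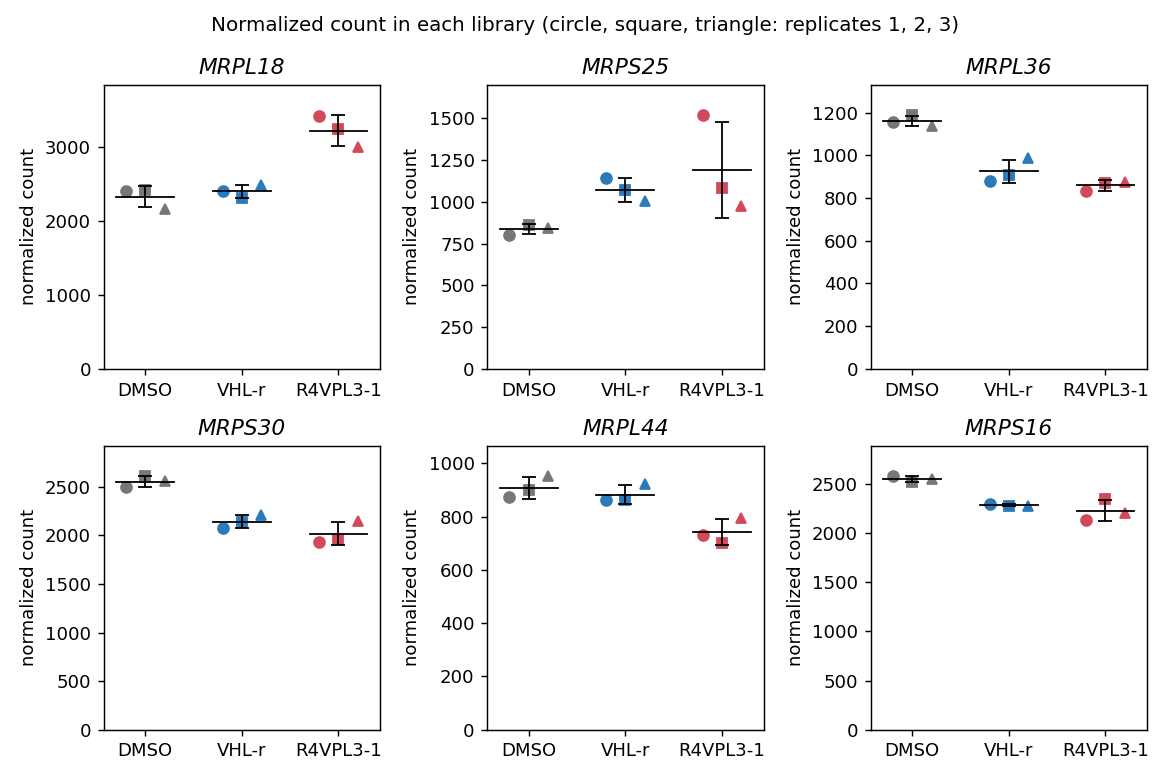
Normalized count (axis from 0) of 6 genes in each library, with the mean (line) and SD (bar) of 3 libraries. MRPL18 is raised in R4VPL3-1 alone (3000 to 3418, against 2163 to 2491 in the other libraries), MRPL44 is lowest there, MRPL36, MRPS30 and MRPS16 are lower with either compound, and MRPS25 has a single high library at 1517.

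MRPL44 (ENSG00000135900, chr2:223957463-223967714, plus strand) encodes a large-subunit protein with a ribonuclease III-like fold. Its normalized counts were 873, 899 and 952 in DMSO, 862, 862 and 924 in VHL-r, and 729, 702 and 796 in R4VPL3-1. All R4VPL3-1 libraries lay below the 6 others. Against DMSO it fell by 0.29 on the log2 scale (SE 0.066, limma adjusted p = 0.00236) and did not pass against VHL-r, at -0.25 with a 95% interval of -0.39 to -0.11 (limma adjusted p = 0.0585). Over the alternatives the latter p ran from 0.0188 to 0.271, and it passed without R4VPL3-1 replicate 3 (0.0188), with the replicate number as a block (0.0189) and by DESeq2 (0.0473). None of the 6 motifs was found in its promoter window.

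The other member that rose was MRPS25 (ENSG00000131368, chr3:15009611-15065339, minus strand), a mitochondrion-specific protein of the small subunit. Its normalized counts were 801, 862 and 844 in DMSO, 1143, 1071 and 1002 in VHL-r, and 1517, 1083 and 973 in R4VPL3-1. All libraries of either compound lay above the DMSO libraries, the compounds overlapped, and R4VPL3-1 replicate 1 stood far above the rest. The log2 fold change against DMSO was 0.49 ± 0.11 (SE) in R4VPL3-1 (limma adjusted p = 0.00164) and 0.36 ± 0.11 in VHL-r (limma adjusted p = 0.0198). Without R4VPL3-1 replicate 1 the former was 0.30 and was still called (limma adjusted p = 0.0062). The call in VHL-r was lost without DMSO replicate 1 (adjusted p = 0.0646), VHL-r replicate 1 (0.0919) or VHL-r replicate 2 (0.062), by DESeq2 (0.138) and with limma's robust option (0.133). Another annotated gene on the same strand, ENSG00000289750, covers 11.3% of its exon bases. NR2C2, which overlaps it on the opposite strand and is counted apart in strand-specific reads, was not called against DMSO, at -0.012 in R4VPL3-1 and 0.015 in VHL-r (limma adjusted p = 0.918 and 0.901).

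Of the genes that fell, MRPL36 (ENSG00000171421, chr5:1798385-1801366, minus strand) had the largest change. It encodes the counterpart of a small zinc-binding protein of the bacterial large subunit. Its normalized counts were 1155, 1187 and 1139 in DMSO, 879, 909 and 986 in VHL-r, and 831, 872 and 875 in R4VPL3-1. Every library of either compound lay below every DMSO library. The log2 fold change against DMSO was -0.43 ± 0.061 (SE) in R4VPL3-1 (limma adjusted p = 1.49e-05) and -0.33 ± 0.061 in VHL-r (limma adjusted p = 0.000435). Between the compounds it was -0.10 with a 95% interval of -0.23 to 0.022 (limma adjusted p = 0.641).

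MRPS30 (ENSG00000112996, chr5:44808947-44820428, plus strand) is named for the small subunit but its protein belongs to the large one. Its normalized counts were 2497, 2609 and 2555 in DMSO, 2073, 2142 and 2210 in VHL-r, and 1934, 1966 and 2152 in R4VPL3-1. The DMSO libraries lay above all others, and the compounds overlapped. Against DMSO it fell by 0.34 on the log2 scale in R4VPL3-1 and fell by 0.25 in VHL-r (SE 0.052, limma adjusted p = 3.69e-05 and 0.0011). The compounds differed by -0.088, with a 95% interval of -0.20 to 0.020 (limma adjusted p = 0.649). The calls of MRPL36 and MRPS30 against DMSO were kept in every fit without a replicate.

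MRPS18A, a large-subunit protein despite its name, and MRPS16, a small-subunit protein with a bacterial counterpart, were also called lower with both compounds. MRPS18A had 1500, 1373 and 1419 normalized counts in DMSO, 1192, 1265 and 1285 in VHL-r, and 1193, 1282 and 1224 in R4VPL3-1. MRPS16 had 2583, 2519 and 2550 in DMSO, 2296, 2282 and 2277 in VHL-r, and 2134, 2345 and 2211 in R4VPL3-1. In neither gene did a compound overlap with DMSO, and in both the compounds overlapped with each other. The log2 fold changes of MRPS18A were -0.21 in R4VPL3-1 and -0.20 in VHL-r (limma adjusted p = 0.00797 and 0.0168), and those of MRPS16 were -0.19 and -0.16 (limma adjusted p = 0.00443 and 0.0223).

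In R4VPL3-1 alone MRPL20, MRPS2, MRPL14, MRPL33 and MRPL16 were also called lower than DMSO, and in VHL-r alone MRPS26. MRPL20, a large-subunit protein, fell by 0.19 on the log2 scale, and MRPS2, of the small subunit, fell by 0.19 (limma adjusted p = 0.00433 and 0.0163). MRPL14, which lies where the subunits meet, fell by 0.20 (limma adjusted p = 0.0293). MRPL33 fell by 0.18 and MRPL16 fell by 0.16 (limma adjusted p = 0.00861 and 0.0249), and these 2 genes are named because they complete the count, after their values were seen. MRPS26, a mitochondrion-specific small-subunit protein, fell by 0.20 in VHL-r (limma adjusted p = 0.0146) and stood at -0.14 in R4VPL3-1 (limma adjusted p = 0.0689). On the same strand other annotated genes cover 21.2% of the exon bases of MRPL33 and 10.6% of those of MRPL20. A call with 1 compound is not shown to differ between compounds, and none of these 6 was called in R4VPL3-1 against VHL-r.

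The weaker of these calls depended on single libraries. In R4VPL3-1 against DMSO, leaving out DMSO replicate 1 lost MRPS18A (limma adjusted p = 0.0513), MRPL14 (0.148) and MRPS2 (0.0769). MRPL14 was also lost without DMSO replicate 2 (0.0903), R4VPL3-1 replicate 1 (0.0842) or R4VPL3-1 replicate 3 (0.0652), and MRPS2 without R4VPL3-1 replicate 1 (0.067) or 3 (0.0531). MRPL16 was lost without DMSO replicate 2 or R4VPL3-1 replicate 1. In VHL-r against DMSO, leaving out DMSO replicate 1 lost MRPS26 (0.0916), MRPS18A (0.0943) and MRPS16 (0.0744), and leaving out VHL-r replicate 1 lost MRPS26 (0.0793) and MRPS18A (0.0783). MRPS16 was lost as well without DMSO replicate 2 (0.0523), DMSO replicate 3 (0.0543) or VHL-r replicate 2 (0.0741).

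Short sites near the RefSeq starts of MRPS30 and MRPL36 are shown because these genes had the largest falls, with the motif in capitals (GRCh38.p14). For MRPL36 this start is 1799837, which lies inside the gene, whose annotated start on the minus strand is 1801366. The MRPS30 match begins 13 bases past its RefSeq start, so it lies within the transcribed part and not before it. The MRPL36 matches lie at -34 (YY1), -56 (E-box) and -110 (NRF1).

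MRPS30, YY1 motif, chr5:44808952-44808974, plus strand: cgcgggcaAAGATGGcggcggcc

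MRPL36, YY1 motif, chr5:1799857-1799879, minus strand: ccccgccgCCATCTTccttcctg

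MRPL36, E-box, chr5:1799880-1799901, minus strand: gggcacgcCACGTGaccccccc

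MRPL36, NRF1 motif, chr5:1799930-1799955, minus strand: gcactccaGCGCCTGCGCactcgctg

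Over the whole group, 60 of the 69 genes had a promoter window in RefSeq. The ETS motif was found in 27 of the 60 (45.0%), beside 12.2% of all 27305 windowed genes and 21.4% of the 10947 tested ones. The YY1 motif was found in 21 (35%), beside 7.1% and 9.2%. NRF1 matched in 8 (13.3%), beside 7.0% and 12.9%, and the E-box in 9 (15.0%), beside 8.8% and 12.2%. The heat shock element matched in 8 (13.3%, beside 9.5% and 8.4%) and 6 (10.0%, beside 8.2% and 6.9%) for its orientations. ETS and YY1 letters were thus found in a larger share of these genes than of all windowed genes, as a description without a test.

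By place in the ribosome, 22 of the 69 genes belong to the small and 46 to the large subunit, and MRPS36, now known as a part of the 2-oxoglutarate dehydrogenase complex, to neither. Against DMSO, R4VPL3-1 lowered 2 and raised 1 of the 22 small-subunit genes (median -0.065) and lowered 8 and raised 1 of the 46 large-subunit genes (median -0.084). That is 9.09% and 17.4% lower, beside 11.8% of all genes, and 4.55% and 2.17% higher, beside 13.1%. VHL-r lowered 2 and raised 1 small-subunit gene (median -0.039) and lowered 3 and raised 0 large-subunit genes (median -0.043). These are 9.09% and 6.52% lower, beside 9.51% of all genes, and 4.55% and 0% higher, beside 10.3%. The lists used here placed 39 genes with a bacterial counterpart and 29 without, and MRPS28, which was not called, was placed among the latter. Of the 39, 7 fell and 1 rose in R4VPL3-1 against DMSO, and of the 29, 3 fell and 1 rose. That is 17.9% and 10.3% lower, beside 11.8% of all genes, and 2.56% and 3.45% higher, beside 13.1%. Whether these groups differ was not tested.

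Among the tested genes of the central protuberance, where its protein sits, MRPL18 was the single one called. In R4VPL3-1 against VHL-r that is 16.7% called higher and 0% lower, beside 1.14% and 0.729% of all genes. In the central protuberance, 6 of 8 genes were tested, and beside MRPL18 they were MRPL27, which stands near the site of peptide bond formation, MRPL40, MRPL48, MRPL55 and MRPL58, a peptidyl-tRNA hydrolase within the ribosome. In R4VPL3-1 against VHL-r these stood at log2 fold changes of -0.0083, 0.026, -0.031, 0.0045 and 0.065 in that order. None of them was called in any comparison. In the same comparison, the 3 tested genes of the stalk that binds translation factors had a median of -0.053. The 6 of the exit tunnel had -0.0086, beside -0.0056 over all genes. No stalk or exit tunnel gene was called in any comparison. With so few genes, the lack of further calls is no result about these parts of the ribosome.

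The sum of all 69 genes gave the same picture of small shifts. It was 138203 ± 2589 normalized counts in DMSO, 132830 ± 2286 in VHL-r and 132033 ± 1839 in R4VPL3-1 (SD, n = 3 each), or 0.484%, 0.470% and 0.465% of each library's total. Per library it was 139532, 139857 and 135220 in DMSO, 130191, 134190 and 134109 in VHL-r, and 129915, 132957 and 133227 in R4VPL3-1. All libraries of either compound lay below the DMSO libraries, and the compounds overlapped.

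Longer genes lay slightly higher than shorter ones against DMSO. Over the 69 genes, Spearman's rho of gene span with log2 fold change was 0.298 in R4VPL3-1 against DMSO, 0.315 in VHL-r against DMSO and 0.001 in R4VPL3-1 against VHL-r. The 34 genes that span more than the median of 12560 bases had a middle value of -0.050 on the log2 scale with R4VPL3-1 against DMSO, and the other 35 had -0.090. With GC content of the longest transcript rho was -0.227, -0.149 and -0.152, and with exon length it was 0.004, 0.038 and -0.057, in the same order. These are descriptions across genes, which share libraries and are not independent replicates.

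Of the 69 genes, 21 have a neighbour on the opposite strand that starts within 1000 bases of their own annotated start. For MRPL36 that is 1801366, not the RefSeq start used for its motifs. The called genes among them numbered 4 in R4VPL3-1 against DMSO, 2 in VHL-r against DMSO and 1 in R4VPL3-1 against VHL-r. In 0 of these cases was the neighbour called in the same direction. Of all genes, 13.1%, 10.3% and 1.14% were called higher and 11.8%, 9.51% and 0.729% lower, in the same order. With so few called genes, the 0 is no statement on whether neighbours change together. NDUFS6, the neighbour of MRPL36 and a subunit of respiratory complex I, stood at -0.12 and -0.064 against DMSO in R4VPL3-1 and VHL-r (limma adjusted p = 0.0793 and 0.428). TWNK, the mitochondrial DNA helicase and neighbour of MRPL43, was called lower at -0.31 and -0.16 (limma adjusted p = 4.68e-05 and 0.0214), while MRPL43 stood at -0.15 and -0.13 and was not called. The VHL-r call of TWNK was lost without DMSO replicate 1 (0.0736), DMSO replicate 3 (0.0579), VHL-r replicate 1 (0.118) or VHL-r replicate 2 (0.0668). The other neighbours called are named after their values were seen: PPP1R10, beside MRPS18B, was called higher at 0.45 and 0.49 (limma adjusted p = 2.63e-06 and 1.23e-06), and ZNF189, beside MRPL50, at 0.37 in R4VPL3-1 (limma adjusted p = 0.00375). In VHL-r PELI3, beside MRPL11, and EME1, beside MRPL27, were called lower at -0.29 and -0.19 (limma adjusted p = 0.0134 and 0.0375).

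Of the 5 mitochondrial ribosomal proteins without an MRP symbol, 0 were called in any comparison, beside 13.1% of all genes higher and 11.8% lower in R4VPL3-1 against DMSO. DAP3 passed there with nuclear-total scaling (adjusted p = 0.0474) and without R4VPL3-1 replicate 3 (0.0493). The 5 are DAP3, PTCD3, AURKAIP1, CHCHD1 and GADD45GIP1, and their log2 fold changes ran from -0.13 to 0.098 in R4VPL3-1 against DMSO, from -0.042 to 0.030 in VHL-r against DMSO and from -0.084 to 0.068 in R4VPL3-1 against VHL-r.

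Of 26 genes for assembly of the mitochondrial ribosome, 23 were tested, and against DMSO 4 rose and 1 fell in R4VPL3-1 while 3 rose and 3 fell in VHL-r. The shares called higher, 17.4% and 13%, were near the 13.1% and 10.3% of all genes, and those called lower were 4.35% and 13%, beside 11.8% and 9.51%. TFB1M was called lower in VHL-r, with a mean of 366 normalized counts beside 476 in DMSO. That call was kept under all 19 alternatives, with log2 fold changes from -0.43 to -0.33. DDX28, a helicase of large-subunit assembly, fell by 0.49 in R4VPL3-1 and fell by 0.53 in VHL-r (limma adjusted p = 0.000143 and 8.5e-05). MPV17L2 rose by 0.26 and 0.32 (limma adjusted p = 0.00411 and 0.000884), MTERF3 by 0.24 and 0.26 (limma adjusted p = 0.0085 and 0.00604) and the GTPase NOA1 by 0.17 and 0.20 (limma adjusted p = 0.0493 and 0.0232). In R4VPL3-1 against DMSO the call of NOA1 was lost under 9 of 19 alternatives, DESeq2 (0.0527) and the fit without DMSO replicate 1 (0.0681), 2 (0.0717) or 3 (0.182) or without R4VPL3-1 replicate 1 (0.205) or 2 (0.0942) among them, and that of MTERF3 without R4VPL3-1 replicate 1 (0.0551). MTG2, a GTPase of the large subunit, was the single gene of the assembly, translation, transcription and regulator lists called between the compounds, at 0.20 (limma adjusted p = 0.0422), and against DMSO it was called lower in VHL-r, at -0.31 on the log2 scale (limma adjusted p = 0.00013). This call of MTG2 between the compounds was lost under 10 of 19 alternatives, with adjusted p from 0.0178 to 0.213 over all of them, and it was lost without VHL-r replicate 1 (0.109), 2 (0.102) or 3 (0.131) and without R4VPL3-1 replicate 1 (0.165) or 2 (0.213).

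Of 15 tested translation factors of the mitochondrion, GFM1, an elongation factor, fell by 0.17 in R4VPL3-1 and fell by 0.15 in VHL-r (limma adjusted p = 0.00756 and 0.0164), and the rest were not called (6.67% lower with either compound, beside 11.8% and 9.51% of all genes). The call of GFM1 was lost in R4VPL3-1 without R4VPL3-1 replicate 1 (0.0528), and in VHL-r without DMSO replicate 1 (0.0768), DMSO replicate 2 (0.0652) or VHL-r replicate 2 (0.0717). Among 10 genes for transcription and maintenance of mitochondrial DNA, 4 fell and 1 rose in R4VPL3-1 (40% and 10%, beside 11.8% and 13.1% of all genes), and 3 fell and 1 rose in VHL-r (30% and 10%, beside 9.51% and 10.3%). MTERF1, which binds mitochondrial DNA downstream of the ribosomal RNA genes, was called lower at -0.71 and -0.60 (limma adjusted p = 1.63e-07 and 2.93e-06). POLG, the mitochondrial DNA polymerase, rose by 0.44 and 0.35 (limma adjusted p = 1.82e-07 and 5.86e-06). TEFM was called lower at -0.33 and -0.27 (limma adjusted p = 0.0128 and 0.0488). Its VHL-r call was lost under 13 of 19 alternatives, TMM scaling, edgeR and DESeq2 among them. Its R4VPL3-1 call was lost without DMSO replicate 2 (0.0751). The remaining fall in VHL-r was TWNK, whose call was also lost without single libraries, as given above.

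Of 9 tested regulators known to act on nuclear genes for mitochondria, 3 rose and 3 fell in R4VPL3-1 against DMSO (33.3% each way, beside 13.1% and 11.8% of all genes), with a median of -0.025. In VHL-r against DMSO 2 rose and 3 fell (22.2% and 33.3%, beside 10.3% and 9.51%), with a median of -0.0049, and between the compounds 0 were called. MYC had 1253, 1254 and 1049 normalized counts in DMSO, 379, 430 and 408 in VHL-r, and 320, 401 and 321 in R4VPL3-1, and was called lower at log2 fold changes of -1.77 in R4VPL3-1 and -1.54 in VHL-r (limma adjusted p = 9.8e-12 and 1.86e-10). NRF1 rose by 0.35 and 0.31 (limma adjusted p = 0.00015 and 0.000696), GABPB1, a subunit of an ETS-family factor, by 0.19 and 0.20 (limma adjusted p = 0.0295 and 0.0248). The R4VPL3-1 call of GABPB1 was lost without DMSO replicate 2 (0.0812), DMSO replicate 3 (0.0824), R4VPL3-1 replicate 1 (0.131) or R4VPL3-1 replicate 2 (0.0661). Its VHL-r call was lost without DMSO replicate 2 (0.0731), DMSO replicate 3 (0.0737), VHL-r replicate 1 (0.105) or VHL-r replicate 2 (0.115). PPARGC1A, with a mean of 31.3 in DMSO, was called lower in VHL-r at -1.08 (limma adjusted p = 0.00767) and stood at -0.69 in R4VPL3-1 (limma adjusted p = 0.0773). PPARGC1B was called lower in R4VPL3-1 against DMSO at -0.23 (limma adjusted p = 0.0258), a call lost under 6 of 19 alternatives.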

How the data were processed

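The authors sequenced poly(A) RNA in single reads of 100 bases, aligned them with STAR to GRCh38 (Ensembl 109), counted reads per gene by strand with htseq-count and normalized with DESeq2 1.36.0, per the methods. The deposited values, of unit signal, are these counts divided by a size factor, before any log. Every value was a whole multiple of 1 read (100% of values, tolerance 0.0101), which gave back the reads used for edgeR and DESeq2.

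Groups came from the labels. limma 3.58.1 (R 4.3.3, trend on) was fitted to log2(value + 1) of all 9 libraries for genes with a mean of at least 10, and tested on simulated data. Intervals are 95%. Alternatives were pseudocounts of 0.1 and 5, no filter or a mean of 50, TMM, upper quartile and nuclear-total scaling, the robust option, a replicate block, edgeR 4.0.16, DESeq2 1.42.0, the 6 libraries compared, an adjusted p of 0.01 and each library left out. Levels per uncovered exon were added after seeing the data. Exons and positions came from GENCODE 44 and promoter sequences from RefSeq (GRCh38.p14), read with Python 3.11.15 and pandas 2.3.3.

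Named genes were those called between the compounds, the 8 called rises and falls of largest size without overlap in each contrast with DMSO, MRPL18 and MRPL44, the extremes of level, the genes nearest to the minimum, and up to 4 called genes per context list. The genes and lists were chosen with earlier results of these data known. The p-values measure the spread between libraries, whose origin in separate cultures rests on the methods. The values of the study's own comparisons were not used. A marker of the immune list is not reported here.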

Additional observations from a re-analysis of the deposited data

Results flagged for a closer look

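MRPL18 differed between the compounds by the test of the difference itself. Its log2 fold change was 0.4211 in R4VPL3-1 against VHL-r (limma adjusted p = 8.75e-05). Against DMSO it was 0.47 with R4VPL3-1 and 0.045 with VHL-r.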

How the results depend on the processing

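The number of genes called lower in R4VPL3-1 against DMSO (10) ranged from 7 to 15 when a library was left out, and the number called higher stayed at 2. In VHL-r against DMSO, the number called higher (1) was 0 with limma's robust option, with DESeq2 and at an adjusted p of 0.01, and 0 to 1 when a library was left out. The number called lower there (5) was 2 at an adjusted p of 0.01, 7 with a minimum mean of 50 and 3 to 6 with a library left out. In R4VPL3-1 against VHL-r the number called lower (0) was 1 with DESeq2 and 0 to 1 with a library left out. edgeR changed no call among the 69 genes. The median over the 69 genes stayed below 0 under every alternative in both contrasts with DMSO, and between the compounds it ranged from -0.0289 to 0.0019, above 0 without R4VPL3-1 replicate 1. The median level of 731 became 948.6 per kilobase of the longest transcript. For each change the cause was not tested.

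Replicate numbers are shared by the groups, and the headers of the deposited values number the libraries of each replicate set in sequence. Same-numbered libraries deviated together only weakly, with correlations from -0.006 to 0.121. Whether they come from paired cultures is not known. With the replicate block, 8 genes were called lower in VHL-r against DMSO, 12 in R4VPL3-1 against DMSO and 1, MRPL44, in R4VPL3-1 against VHL-r.

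With a library left out, log2 fold changes near 0 turned sign. PTCD3 ranged from -0.0139 to 0.0163 in R4VPL3-1 against DMSO, from -0.0156 to 0.0257 in VHL-r against DMSO and from -0.0254 to 0.0177 in R4VPL3-1 against VHL-r. In VHL-r against DMSO, MRPL18 ranged from -0.0091 to 0.0731, AURKAIP1 from -0.0945 to 0.0149 and CHCHD1 from -0.0989 to 0.0068. CHCHD1 ranged from -0.0999 to 0.035 in R4VPL3-1 against VHL-r. MRPS28 and MRPL2, the lowest genes kept, are limited by their low counts, and intervals cover the spread between 3 libraries. Other genes on the same strand cover 35.8% and 29.2% of their exon bases, and the part of this in the low counts was not tested.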
